A study of Mus musculus with 2 samples.

Results

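The cells described here were selected on their measured RNA, in droplet profiles of embryonic mouse hearts, of 4 genes of the epicardial surface, the keratins Krt18 and Krt19, the uroplakin Upk3b and the tetraspan membrane gene Tm4sf5. A cell was taken if these genes gave at least 3 unique molecular identifiers (UMIs, counted RNA molecules) in sum and at least 2 of the 4 were seen. It also had to hold fewer than 30 UMIs per 10000 of the cardiomyocyte genes Tnnt2 and Tnnc1 together, and at most 2 UMIs of the endothelial genes Pecam1, Cdh5 and Egfl7. Of 8740 cells kept in both libraries, 645 passed, 418 of 4640 in the mutant library and 227 of 4100 in the control library. They are called gated cells. The rule used measured RNA, so the levels of the 4 genes, and any contrast of gated cells with other cells of the same libraries, are descriptions without a test.

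The epicardium is the mesothelial sheet that covers the heart. Its cells carry keratins and uroplakins, make retinoic acid through Aldh1a2, and express the transcription factors Wt1, Tbx18 and Tcf21. Some of them lose their epithelial state, enter the heart wall and become fibroblasts and mural cells, while the sheet also secretes signals for the growing myocardium. Prmt1, the gene floxed in the mutant, encodes the main enzyme for asymmetric dimethylation of arginine in proteins, many of which bind RNA.

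The mutant hearts had the genotype Tbx18-Cre; Prmt1 fl/fl;YFP/+ and the control hearts Tbx18-Cre; YFP/+, both at E12.5 (embryonic day). Both groups thus carry the Cre driver and a YFP allele, and no heart without Cre was profiled. Cre under Tbx18 control acts in the epicardium and its descendants and, as background, also in other cells that express Tbx18, among them some cardiomyocytes. Hearts were dissociated with TrypLE, an enzyme mixture, and each genotype gave 1 library, so no difference below has a replicate check or a p-value, and every interval covers counting error only. Neither the number of embryos pooled nor any sorting of cells is given in the sources used here. In bulk sums over cells of a class, fewer cells of a kind and less RNA per cell cannot be told apart.

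Gated cells were shallow. The median was 3000.5 UMIs and 1202.5 genes in mutant cells and 2702 UMIs and 1132 genes in control cells, and the summed depth was 2029393 and 1218332 UMIs. A few deep cells weighed heavily: 37 mutant cells above 10000 UMIs held 39.2% of the gated UMIs, and 31 such control cells held 49.6%. Haemoglobin took 6.36% of the gated UMIs in the mutant library and 4.84% in the control library, and in 27 mutant and 17 control cells it made up at least 10% of the cell's UMIs. A further 175 mutant and 179 control cells had the keratin and uroplakin RNA but too much muscle RNA and were left out. Their median depth was 33023 and 28376 UMIs. No other doublets were removed. Among the kept cells 8 barcodes occurred in both libraries, none of them in gated cells of both. Gated cells with Xist but no Y-linked UMI numbered 91 in the mutant and 18 in the control library, and those with the reverse 21 and 34, so the split by sex-linked RNA differed between the libraries.

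Krt18, a type I keratin of simple epithelia (ENSMUSG00000023043, chr15:102028180-102032027, GRCm38), was the gate gene seen most often, in 94.0% of gated mutant cells and 92.5% of gated control cells. Its summed level, in CPM (UMIs of the gene per 1000000 UMIs of the cell group), was 738 in mutant and 814 in control gated cells. Upk3b, an uroplakin of mesothelium (ENSMUSG00000042985, chr5:136038496-136046487), was seen in 73.4% and 65.2% of these cells at 564 and 703 CPM. Tm4sf5 (ENSMUSG00000018919, chr11:70505244-70511178) was seen in 80.9% and 71.8% at 407 and 303 CPM. Krt19, a second type I keratin (ENSMUSG00000020911, chr11:100140810-100148665), was the sparsest, in 29.7% and 38.8% at 101 and 138 CPM. All 4 genes were seen together in 63 mutant cells (15.1%) and 37 control cells (16.3%). In Tcf21+ mesenchymal cells (at least 3 UMIs of Col1a1, Col1a2, Col3a1, Postn and Dcn with 2 of them seen, at least 1 Tcf21 UMI and at most 1 gate-gene UMI) the 4 genes summed to 33.3 CPM (mutant) and 30.3 CPM (control), a limit the rule itself sets.

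The starts of the gate genes are shown because these genes define the cells. The windows run from 250 bases before to 50 bases after each RefSeq start (GRCm38.p6), 5′ to 3′ on the gene's strand. Of 7 genes looked up, Upk3b, Krt18, Tm4sf5 and the keratin Krt7 had an entry, and Krt19, Upk1b and Wt1 had none. Capitals mark matches on either strand to 4 letter strings: TATAAA, the GC box GGGCGG, the TEAD-type string GGAATG and the AP-1 string TGACTCA.
Upk3b, chr5:136038246-136038545, + strand: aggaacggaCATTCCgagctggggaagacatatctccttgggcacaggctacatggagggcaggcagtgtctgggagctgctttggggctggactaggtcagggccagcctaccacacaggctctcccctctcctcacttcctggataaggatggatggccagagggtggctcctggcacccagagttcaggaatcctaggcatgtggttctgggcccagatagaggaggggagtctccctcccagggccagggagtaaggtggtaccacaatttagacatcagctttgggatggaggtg
Krt18, chr15:102027966-102028265, + strand: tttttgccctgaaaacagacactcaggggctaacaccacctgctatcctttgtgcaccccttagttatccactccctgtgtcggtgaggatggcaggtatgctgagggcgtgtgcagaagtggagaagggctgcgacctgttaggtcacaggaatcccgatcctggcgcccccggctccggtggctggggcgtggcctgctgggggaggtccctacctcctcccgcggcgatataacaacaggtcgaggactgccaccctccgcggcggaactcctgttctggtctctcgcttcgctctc
Tm4sf5, chr11:70505024-70505323, + strand: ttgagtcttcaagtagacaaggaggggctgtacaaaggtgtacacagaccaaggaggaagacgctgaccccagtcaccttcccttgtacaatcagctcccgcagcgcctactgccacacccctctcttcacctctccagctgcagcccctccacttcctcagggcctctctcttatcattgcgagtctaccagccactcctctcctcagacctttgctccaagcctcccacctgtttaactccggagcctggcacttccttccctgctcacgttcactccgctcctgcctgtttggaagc
Krt7, chr15:101412153-101412452, + strand: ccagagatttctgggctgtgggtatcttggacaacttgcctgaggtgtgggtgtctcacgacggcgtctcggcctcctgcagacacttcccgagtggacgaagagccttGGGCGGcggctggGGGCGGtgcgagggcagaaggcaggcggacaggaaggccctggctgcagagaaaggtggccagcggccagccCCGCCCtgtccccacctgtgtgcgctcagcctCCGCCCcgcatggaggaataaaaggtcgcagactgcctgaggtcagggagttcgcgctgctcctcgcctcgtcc
The Krt7 window held GGGCGG at 4 places, and the Upk3b window held 1 GGAATG on the opposite strand, overlapping no other match. The windows of Krt18 and Tm4sf5 held none of the 4 strings. Of all 32851 windows of this length, 35.7% held GGGCGG, 14.7% GGAATG, 13.6% TATAAA and 5.2% TGACTCA. A match is a description of letters, and no match says nothing about a factor.

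Several epicardial genes that the gate did not read were high in the same cells, in both libraries. Krt7 stood at 261 CPM in gated mutant cells and 260 CPM in gated control cells, against 7.97 and 7.28 CPM in Tcf21+ mesenchymal cells. Upk1b, the uroplakin partner gene (chr16:38773184-38800328), stood at 113 and 147 CPM against 3.62 and 9.71 CPM. Aldh1a2, which makes retinoic acid, stood at 151 and 176 CPM against 18.8 and 15.8 CPM, and Rspo1, a secreted Wnt enhancer, at 124 and 133 CPM against 3.62 and 8.49 CPM. Wt1 and Tbx18 differed less, Wt1 with 83.8 and 99.3 CPM against 23.2 and 15.8 CPM, and Tbx18 with 74.9 and 82.9 CPM against 36.2 and 25.5 CPM. With cells thinned to 1000 UMIs, Wt1 was seen in 3.35% and 6.17% of gated cells against 2.59% and 1.79% of Tcf21+ mesenchymal cells. Tbx18 was seen in 3.83% and 5.73% against 3.17% and 1.79%. For both genes the intervals of the gated and mesenchymal shares overlap in each library. Of the 22 listed epicardial and mesothelial markers other than the gate genes, all had a UMI and 15 reached a mean of 50 CPM over both libraries. Of those 15, 12 were at least 2-fold higher than in Tcf21+ mesenchymal cells in both libraries, against 6.06% of all genes at that mean. Tcf21, by which the mesenchymal cells were chosen, was lower, with log2 ratios of -1.01 and -1.38. Those cells were also limited to 1 gate-gene UMI, so the contrast describes the label of the gated cells and is no check of it. After each cell was thinned to 1000 UMIs, Krt7 was seen in 17.2% of gated mutant cells and 18.1% of gated control cells, and in none of 154 and 97 endothelial cells, which allows a share of up to 1.95% and 3.09% (unthinned 43.8% and 44.1% of gated cells against 1.30% and 0% of endothelial cells; median depths of endothelial cells 4668.5 and 4574 UMIs). Cdh1, the E-cadherin gene, had no UMI in any of the 418 or 227 gated cells, which allows up to 0.718% and 1.32% of cells with a UMI.

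**Figure D1:**
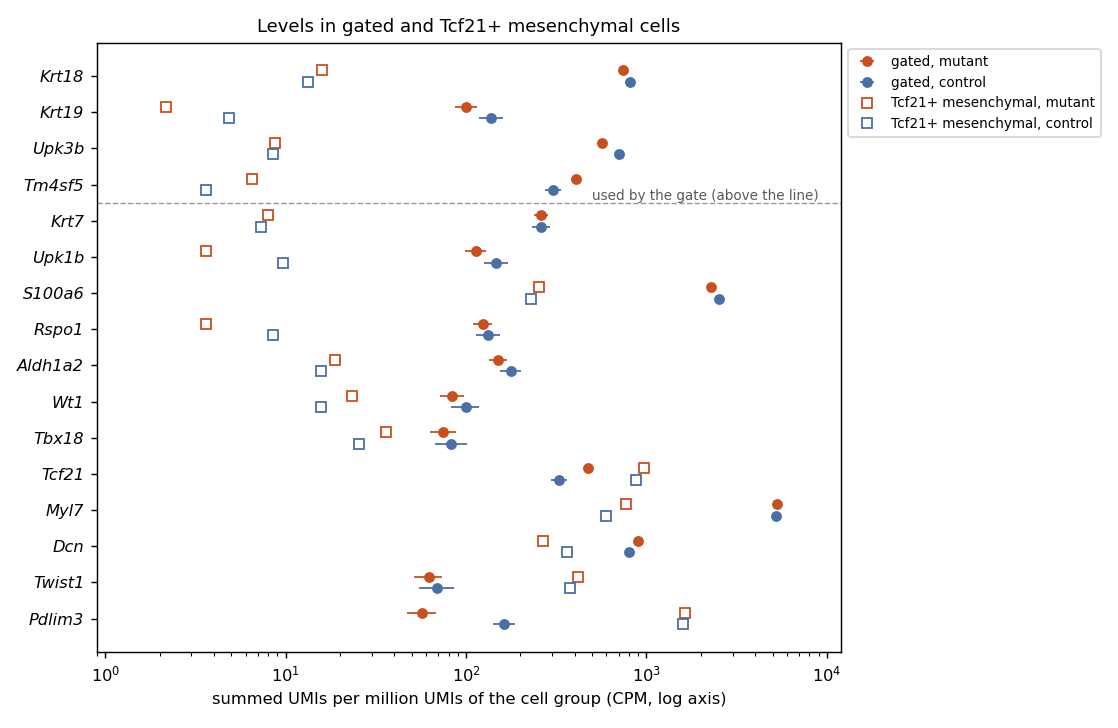
Summed level of 16 genes in gated cells (filled circles, with exact Poisson intervals at 95%) and in Tcf21+ mesenchymal cells (open squares) of the mutant and control libraries, in CPM on a log axis. The 4 genes above the dashed line chose the cells; Krt7, at 261 and 260 CPM, did not.

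Across 2444 genes with a mean of at least 50 CPM in gated cells, 148 (6.06%) were at least 2-fold higher in gated than in Tcf21+ mesenchymal cells in both libraries, on the scale log2((CPM + 10)/(CPM + 10)). Of these, 37 were higher still in cardiomyocytes or red cells, and 111 were higher in neither. Beside the gate genes, the 20 with the highest ratios included S100a6, a small calcium-binding protein gene (2281 and 2510 CPM in gated cells against 252 and 229 CPM), Smim1 (1454 and 1270 against 217 and 206), the cortical linker gene Ezr (404 and 381 against 47.1 and 40.0) and Dlk1, a Notch-like membrane protein gene (405 and 580 against 71.7 and 92.2). Apela, a peptide ligand of the apelin receptor, stood at 322 and 346 CPM against 38.4 and 23.1 CPM. The cytokine gene Il18 stood at 149 and 126 CPM against 10.1 and 7.28 CPM, the peptidase gene Dpp4 at 96.1 and 67.3 against 3.62 and 4.85, the laminin receptor gene Bcam at 173 and 198 against 18.1 and 9.71, and the mesothelial gene Lrrn4 at 77.4 and 67.3 against 5.07 and 3.64. Gng13, Cystm1, Stk26 and Arhgap29 were also in this group, with 81.3 to 131 CPM in gated cells. Alas2, of haem synthesis, and Hsd3b6 were also among the 20, with 21% and 36.0% of their gated mutant UMIs in 1 cell. These 2 of the 20 genes passed 1.5-fold between the mutant and control libraries.

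Lower by at least 2-fold in both libraries were 18 genes (0.736%). Pdlim3, an actin-linked gene, had 57.2 CPM in gated mutant and 163 CPM in gated control cells, against 1641 and 1593 CPM in Tcf21+ mesenchymal cells. Twist1, a transcription factor of mesenchymal transition, had 62.1 and 68.9 CPM against 416 and 377 CPM. Tagln2, Csrp2, Bgn, Lum, Lgals1, Fstl1, Id3 and Tmsb4x were also on this side. Tcf21 itself was 474 and 328 CPM in gated cells against 965 and 871 CPM, a contrast that its use in choosing the mesenchymal cells fixes. Not all matrix genes were low: Dcn, a small proteoglycan gene, had 902 and 805 CPM in gated cells against 268 and 360 CPM, although Dcn is among the genes that chose the mesenchymal cells.

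The share of gated cells was larger in the mutant library. They were 9.01% of kept mutant cells (exact 95% interval 8.20 to 9.87) and 5.54% of kept control cells (4.86 to 6.28), a difference of 3.47 percentage points (Newcombe interval 2.39 to 4.55). Cardiomyocytes differed in the opposite direction, 34.7% of mutant against 49.2% of control cells, and any share depends on them. Of cells that were neither cardiomyocytes nor red cells, the gated cells were 15.9% of 2626 in the mutant and 12.4% of 1834 in the control library, a difference of 3.54 points (1.46 to 5.58). Among gated and Tcf21+ mesenchymal cells together they were 54.6% and 50.3%, and the interval of that difference, 4.31 points, ran from -1.49 to 10.1. The mutant matrix was filtered before deposit and the control matrix was not, and the same minimums were applied to both. Cells just inside the gate, with 3 gate-gene UMIs, numbered 71 in the mutant and 45 in the control library. Cells just outside, with 2 UMIs of 2 gate genes, numbered 51 and 44.

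Prmt1, the floxed gene (ENSMUSG00000109324, chr7:44975989-44986568), had 733 UMIs in gated mutant cells and 569 UMIs in gated control cells, or 361 and 467 CPM. The ratio was 0.773 (0.692 to 0.864). Gated mutant cells had the lowest Prmt1 level of the compared classes: it was 575 and 616 CPM in Tcf21+ mesenchymal cells, 611 and 595 CPM in endothelial cells and 716 and 603 CPM in cardiomyocytes. The ratio of the Prmt1 level in gated cells moved with depth. With equal weight per cell it was 0.849, without cells above 10000 UMIs 0.860, and in cells of 2000 to 5000 UMIs alone 0.953, with 429 CPM in mutant and 450 CPM in control cells. Thinned to 1000 UMIs, a Prmt1 UMI was seen in 32.1% of gated mutant cells (27.6 to 36.8) and 35.2% of gated control cells (29.0 to 41.8). The counts are 3′ tags, which exons the floxed allele loses is not given in the sources used here, and a tag outside the deleted part is still made after deletion, so these levels check nothing about loss of the enzyme. The other arginine methyltransferases rested on at most 55 UMIs in a library. Their UMIs in mutant and control gated cells were 49 and 24 for Carm1, 49 and 41 for Prmt2, 29 and 23 for Prmt5, 24 and 17 for Prmt7, 21 and 9 for Prmt3, 15 and 6 for Prmt6, 9 and 2 for Prmt9, 0 and 1 for Prmt8, and 55 and 29 for Ndufaf7, a mitochondrial methyltransferase gene. Each interval of a ratio among these, computed for all but Prmt8, included 1.

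Myl7, the atrial myosin light chain gene and a defining gene of cardiomyocytes, was among the 20 genes highest in gated over mesenchymal cells. It stood at 5281 CPM in gated mutant and 5205 CPM in gated control cells, against 772 and 595 CPM in Tcf21+ mesenchymal cells, 182 and 460 CPM in endothelial cells, and 13524 and 14645 CPM in cardiomyocytes. Other muscle genes did not keep its proportion, by differing amounts, and the gate itself limits Tnnt2 and Tnnc1. Each Tnni1 UMI came with 9.06 Myl7 UMIs in gated mutant and 7.58 in gated control cells, and with 4.01 and 4.51 in cardiomyocytes. For Tpm1 these values were 3.10 and 2.50 in gated cells, and 1.04 and 1.10 in cardiomyocytes. Myl3 differed more. Each Myl3 UMI came with 19.4 Myl7 UMIs in gated mutant cells and 6.37 in gated control cells, but with 2.40 and 2.51 in cardiomyocytes and 2.22 in control barcodes of 1 to 100 UMIs, which sample free RNA. In Tcf21+ mesenchymal cells, too, the libraries differed, with 11.7 in mutant and 1.64 in control cells. The ratio was 4.08 and 4.80 in endothelial cells. It was highest in Tcf21- mesenchymal cells, which passed the same collagen rule without a Tcf21 UMI, at 39.7 and 72.6 over only 7 Myl3 UMIs in each library, with Myl7 at 749 and 1398 CPM. An excess of Myl7 over Myl3 was thus not particular to gated cells. Myl7 was abundant in the free RNA of the control library, at 7336 CPM; the part of free RNA in the gated level was not tested. Of 221 gated mutant cells with no UMI of Myl2, Myl3, Actc1, Tnnc1, Tnnt2, Myh6 and Myh7, 220 had Myl7 RNA (99.5%, 97.5 to 99.99), and of 112 such control cells 109 had it (97.3%, 92.4 to 99.4). In Tcf21+ mesenchymal cells without those 7 genes the share was 41.1% of 185 mutant and 34.5% of 116 control cells, and in such endothelial cells, which should lack Myl7, 13.9% of 72 and 12.8% of 47. Median depths of these subsets were 2869 and 2434.5 UMIs in gated cells, 2285 and 1974.5 in mesenchymal cells and 3768.5 and 3253 in endothelial cells. With every cell at 1000 UMIs, at least 3 Myl7 UMIs were seen in 76.8% of gated mutant cells (72.4 to 80.8) and 70.9% of gated control cells (64.6 to 76.7), and in 1.95% and 2.06% of endothelial cells. Myl7 was highest in the shallowest gated cells, at 8144 and 6427 CPM under 2000 UMIs against 3402 and 4864 CPM above 10000 UMIs.

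**Figure D2:**
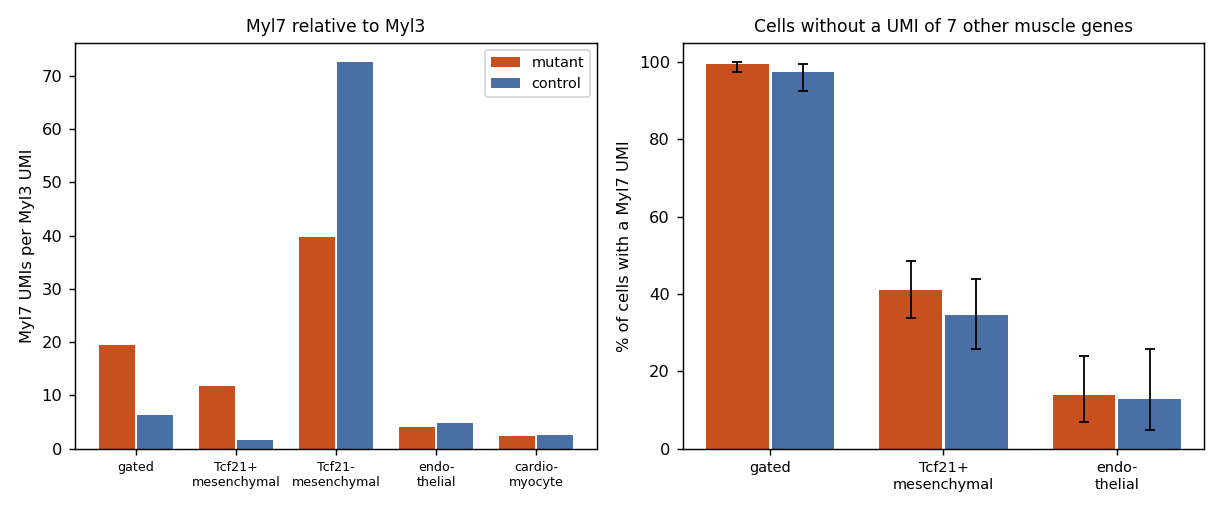
Left, Myl7 UMIs per Myl3 UMI in 5 cell classes of the mutant and control libraries. Right, percent of cells with a Myl7 UMI among cells with no UMI of 7 other muscle genes, with exact 95% intervals; the gated cells stand at 99.5% and 97.3%.

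Between the libraries, 20 of the 2444 genes (0.818%) were at least 1.5-fold higher and 62 (2.54%) at least 1.5-fold lower in gated mutant cells than in gated control cells, and the median log2 ratio of all 2444 was -0.02. These are counts past a size and not tests. Of the 62 lower genes, 30 had a higher level in cardiomyocytes or red cells than in gated cells (31.8% of all 2444 genes did), and 21 were also 1.5-fold lower in Tcf21+ mesenchymal cells (1.6% of all genes were) and 22 in endothelial cells (2.17%). Of the 20 higher genes, 10 had a higher level in cardiomyocytes or red cells, and 11 were also 1.5-fold higher in Tcf21+ mesenchymal cells (2.82% of all genes were) and 9 in endothelial cells (6.18%). The same 2 libraries gave both contrasts. Without cells above 10000 UMIs the counts were 34 and 64. In 19 of the 62 lower and 5 of the 20 higher genes, 1 cell held at least 20% of the gene's gated UMIs in a library. With equal weight per cell, 47 of the 62 and 12 of the 20 still passed 1.5-fold.

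**Figure D3:**
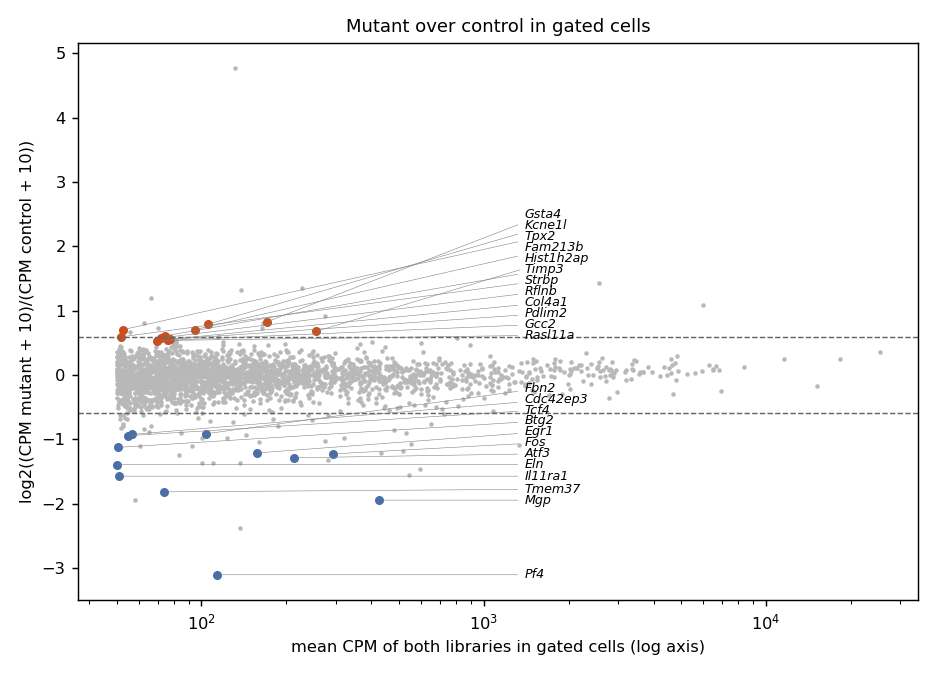
Each point is 1 of 2444 genes in gated cells, with the mean CPM of both libraries on a log axis and the log2 ratio of mutant over control. Dashed lines mark 1.5-fold, and the coloured points are the 12 highest and 12 lowest genes whose level in gated cells is at least that in cardiomyocytes and red cells.

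Mgp, which encodes matrix Gla protein, an inhibitor of calcification (chr6:136872435-136875823), was lower in gated mutant cells. It had 345 UMIs in 150 of 418 gated mutant cells and 832 UMIs in 164 of 227 gated control cells, or 170 and 683 CPM, a ratio of 0.249 (0.219 to 0.283) and a log2 ratio of -1.94. At 1000 UMIs per cell it was seen in 17.2% of mutant cells (13.7 to 21.2) and 40.5% of control cells (34.1 to 47.2). No single cell held over 4.69% of its UMIs in a library. It was lower in mutant cells at every depth, with 312 against 993 CPM under 2000 UMIs, 233 against 734 CPM from 2000 to 5000, 220 against 1187 CPM from 5000 to 10000, and 67.8 against 441 CPM above that. In Tcf21+ mesenchymal cells Mgp stood at 354 and 442 CPM, so its log2 ratio there was -0.31; the difference between the classes was not tested. In endothelial cells it was 69.4 and 162 CPM.

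Among other genes at least 1.5-fold lower, Tmem37, a membrane protein gene, had 27.1 CPM in mutant and 121 CPM in control cells, and was seen in 2.15% and 9.69% of cells at 1000 UMIs. Il11ra1, the interleukin 11 receptor gene, had 20.7 and 81.3 CPM, and it was also lower in Tcf21+ mesenchymal (31.2 and 126), endothelial (46.0 and 94.7) and muscle cells (5.72 and 19.1). Cdc42ep3, a cytoskeletal effector gene, had 36.0 and 77.2 CPM, and the transcription factor gene Tcf4 34.5 and 75.5 CPM. For 3 further genes of this group 1 control cell, found for each gene on its own, weighed heavily. It held 90.3% of the control UMIs of Pf4, a platelet and macrophage gene (15.8 and 212 CPM). The share was 41.5% for Eln, the elastin gene (23.2 and 77.2 CPM), and 28.4% for Fbn2, a microfibril gene (69.0 and 139 CPM). In cells of 2000 to 5000 UMIs alone Eln and Fbn2 were higher in the mutant, with log2 ratios of 0.28 and 0.35. With a muscle limit of 10 UMIs per 10000 the log2 ratio of Pf4 was 0.0050, so the libraries hardly differed. Immune markers were otherwise sparse in gated cells, with a summed level of 68.5 and 227 CPM over 12 genes, and Pf4 gave 212 CPM of the control sum.

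Immediate early genes, which cells switch on within minutes of a stimulus including tissue dissociation, were lower in gated mutant cells. Of 31 listed genes, 30 were in the files and 15 reached 50 CPM. Of these 15, 9 were at least 1.5-fold lower and none higher, against 2.54% and 0.818% of all genes tested, and their median log2 ratio was -0.77 against -0.02 for all genes. The transcription factor genes Fos (171 against 415 CPM), Egr1 (91.2 against 224) and Atf3 (119 against 305) and the antiproliferative gene Btg2 (28.1 against 73.1) had the lowest ratios, followed by Ier2 (340 against 622), Klf4 (41.9 against 82.9), Jun (134 against 239), Jund (477 against 820) and Dusp1 (39.4 against 69.8). Ier3, Zfp36l1, Mcl1 and Klf2 lay within 0.1 of 0 on the log2 scale. Summed over 10 such genes, the level was lower in mutant cells at each depth, with 1246 against 2116 CPM under 2000 UMIs, 856 against 1619 from 2000 to 5000, 986 against 1676 from 5000 to 10000, and 1083 against 2384 CPM above. Fos was seen in 12% of gated mutant cells (9.01 to 15.5) and 28.2% of gated control cells (22.4 to 34.5) at 1000 UMIs, and Egr1 in 6.46% (4.30 to 9.26) and 14.1% (9.85 to 19.3).

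In mesenchymal and endothelial cells most of these genes lay on the other side of 0. Their median log2 ratio was 0.29 in Tcf21+ mesenchymal cells and 0.30 in endothelial cells, where 5 of the 15 were at least 1.5-fold higher in each class and none was 1.5-fold lower. Of all 2444 genes, 2.82% were that much higher in Tcf21+ mesenchymal cells and 6.18% in endothelial cells. Cardiomyocytes and immune cells lay on the same side as gated cells. In cardiomyocytes 12 of the 15 were below 0 and 1 was 1.5-fold lower (0.327% of all genes), with a median of -0.14. In immune cells 12 were below 0, 7 were 1.5-fold lower (7.41% of all genes) and none higher, with a median of -0.56, among them Btg2 at 35.8 CPM in mutant and 177 CPM in control cells. Atf3, for one, had 180 CPM in mutant and 86.2 CPM in control mesenchymal cells, and 346 and 185 CPM in endothelial cells. Genotype and library cannot be told apart, and the difference between classes was not tested.

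**Figure D4:**
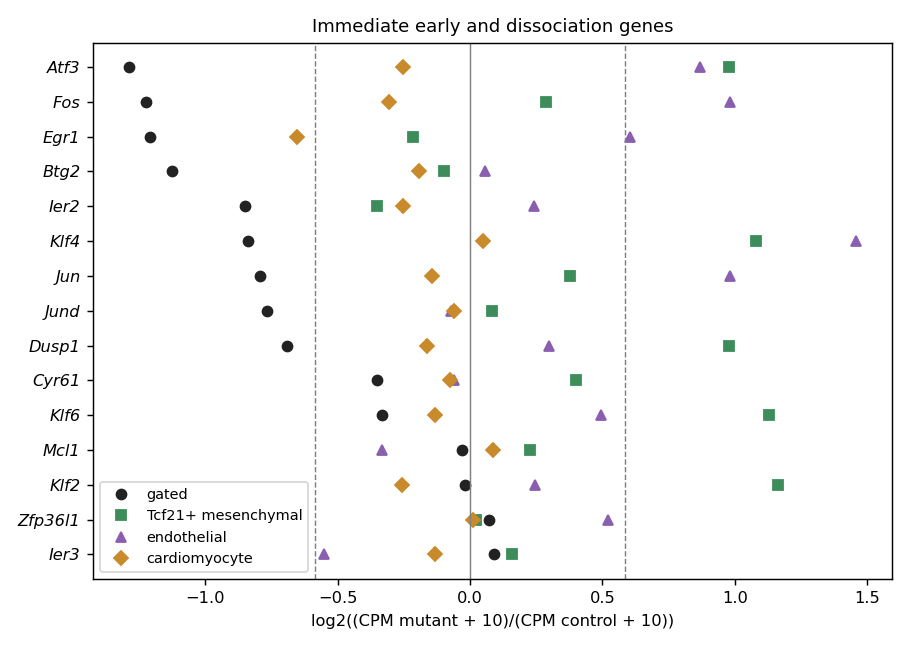
Log2 ratio of mutant over control for the 15 immediate early genes with at least 50 CPM in gated cells, in gated, Tcf21+ mesenchymal, endothelial and cardiomyocyte cells, with dashed lines at 1.5-fold. In gated cells 9 genes lie beyond the lower line, with a median of -0.77.

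Sarcomere and smooth muscle genes were lower in gated mutant cells, and most of their RNA was in deep cells. Of 24 listed cardiomyocyte markers, 15 were tested. Of these, 8 were at least 1.5-fold lower and 1 higher, against 2.54% and 0.818% of all genes tested. Their median was -0.98 (-1.01 in Tcf21+ mesenchymal cells). Myl3 had 272 and 817 CPM, Tnnc1, a gene of the gate's muscle limit, 157 and 406 CPM, and Cox6a2 51.7 and 149 CPM. Of 5 tested mural genes 4 were at least 1.5-fold lower, against the same 2.54% of all genes. They were Acta2, the smooth muscle actin gene (311 and 876 CPM), Cnn1 (18.2 and 98.5), Mgp and Eln. Ankrd1, a stretch-responsive gene that is also on the list of Hippo targets, had 37.4 and 236 CPM. Acta2, Cnn1 and Ankrd1 each stood at 492 CPM or more in cardiomyocytes. Summed over 22 cardiomyocyte markers (without Myl7 and Tpm1), the level was 1021 and 1133 CPM in cells under 2000 UMIs, 836 and 835 CPM from 2000 to 5000, 724 and 5060 CPM from 5000 to 10000, and 7315 and 10696 CPM above. So libraries differed in cells above 5000 UMIs, and with the muscle limit at 10 UMIs per 10000 the median of the list was 0.13. From 2000 to 5000 UMIs Ankrd1, Cnn1 and Eln were higher in the mutant, with log2 ratios of 0.70, 0.42 and 0.28. With a gate of 10 UMIs per 10000 the log2 ratio of Myl3 was 0.34. Clu (72.4 and 202 CPM; 41.9% of control UMIs in 1 cell) and Pdlim3 completed the lower genes with a higher level in muscle or red cells. What muscle RNA in deep gated cells contributes to these values was not tested.

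**Figure D5:**
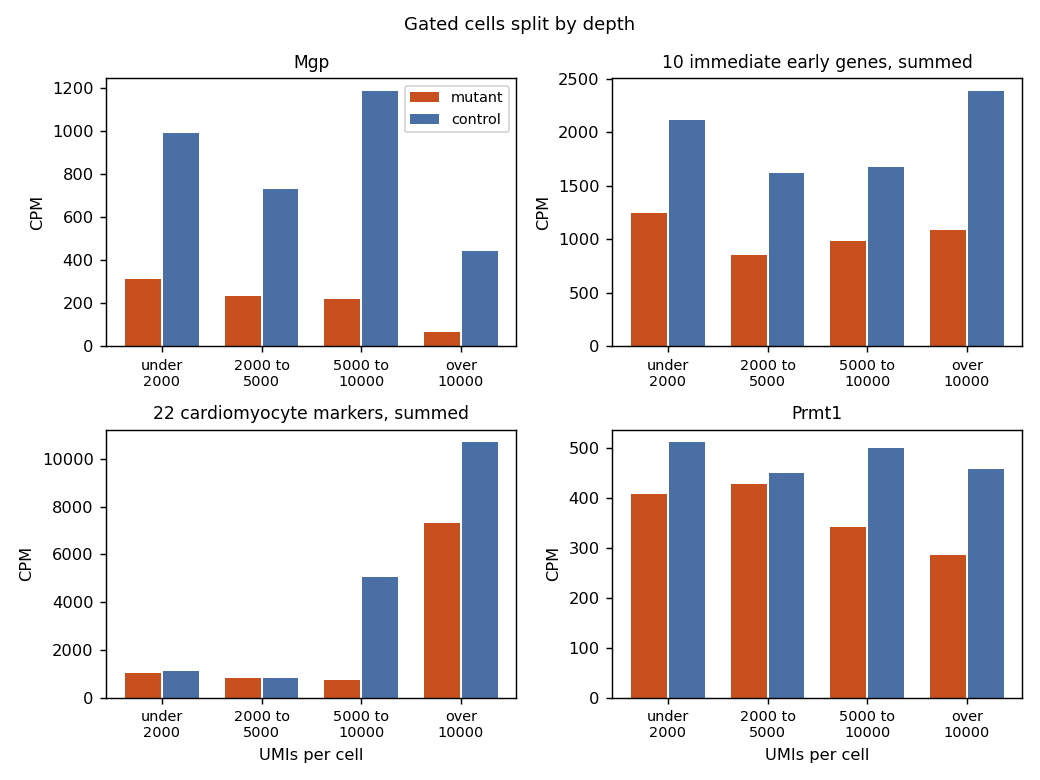
Levels in gated cells of the mutant and control libraries by UMIs per cell, for Mgp, the sum of 10 immediate early genes, the sum of 22 cardiomyocyte markers and Prmt1, in CPM. Mgp and the immediate early sum are lower in mutant cells in all 4 bands, while the muscle sum is 836 and 835 CPM from 2000 to 5000 UMIs.

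Of 16 tested interstitial matrix genes, 13 lay below 0, where 1316 of all 2444 genes (53.8%) also lay, with a median of -0.28. Of the 16, 3 (Mgp, Eln and Fbn2) were at least 1.5-fold lower, against 2.54% of all genes. The fibrillar collagen genes Col1a1 (818 and 990 CPM), Col1a2 (547 and 722) and Col3a1 (374 and 552) were below that size, and Dcn and Lum had log2 ratios of 0.16 and 0.29. Of 6 tested basement membrane genes none passed 1.5-fold. Col4a1, at 94.1 and 60.7 CPM, was the highest of them with a log2 ratio of 0.56. Of 8 tested genes of mesenchymal transition 2 passed, Acta2 and Tcf4, both lower, while Vim (1077 and 1051 CPM), Fn1 (476 and 542) and Cdh2 (80.8 and 75.5) did not.

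Genes higher in gated mutant cells were fewer. Leaving out sex-linked genes and gene models, Gsta4 led the genes as high in gated cells as in cardiomyocytes and red cells. The same sign at equal weight per cell was required. Gsta4, a glutathione transferase gene, had 220 CPM in mutant and 120 CPM in control cells, a ratio of 1.84 (1.52 to 2.23). It was seen in 19.1% of mutant cells (15.5 to 23.2) and 11% of control cells (7.26 to 15.8) at 1000 UMIs. It was also higher in Tcf21+ mesenchymal cells, with 81.2 and 35.2 CPM. Kcne1l, a potassium channel subunit gene, had 136 and 74.7 CPM in gated cells and 38.4 and 36.4 CPM in mesenchymal cells, yet the share of gated cells with a UMI at 1000 was 9.09% and 8.81%. The redox gene Fam213b had 120 and 69.8 CPM, the spindle gene Tpx2 68.0 and 37.8 CPM, the metalloproteinase inhibitor gene Timp3 91.7 and 56.6 CPM, and the histone gene Hist1h2ap 316 and 194 CPM. Strbp, Rflnb, Col4a1, Pdlim2, Gcc2 and Rasl11a followed with ratios of 1.64 down to 1.53. Rasl11a had 31.3% of its control UMIs in 1 cell, and Pdlim2, Gcc2, Col4a1, Rflnb and Rasl11a lie below 1.5-fold on the scale with 10 CPM added.

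Among genes with a higher level in muscle or red cells, Pttg1, the securin gene of sister chromatid cohesion, had 332 CPM in gated mutant and 123 CPM in gated control cells. Yet after thinning, the share of gated cells with a Pttg1 UMI was 17.9% in the mutant and 15.9% in the control library, with overlapping intervals. Before thinning, these shares were 32.3% and 38.3%. The summed level of Pttg1 was also higher in the mutant in the other classes compared, at 498 and 158 CPM in mesenchymal, 289 and 114 in endothelial and 561 and 182 CPM in muscle cells. Tmem242 behaved alike, with 89.7 and 50.1 CPM in gated, 89.8 and 38.8 in mesenchymal, 111 and 43.3 in endothelial and 140 and 60.3 CPM in muscle cells. Hist1h2ae had 206 and 121 CPM, and the red cell genes Alas2 and Bpgm 82.3 and 42.7 CPM and 71.0 and 41.0 CPM. Of 9 tested red cell markers 3 were at least 1.5-fold higher in the mutant, against 0.818% of all genes tested. They were Alas2 and the globin genes Hbb-bt (3754 and 1382 CPM) and Hba-x (8156 and 3846 CPM). Nppa, the atrial peptide gene, had 202 and 74.7 CPM, but 1 cell held 79.2% of its mutant and 71.4% of its control UMIs, and without cells above 10000 UMIs its log2 ratio was -0.78. From 2000 to 5000 UMIs the log2 ratios of Hbb-bt and Hba-x were -0.71 and -0.32.

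Of 19 listed transcription factor genes of the epicardium, 18 had a UMI and 7 were tested. Klf4 alone passed 1.5-fold, lower, where 2.54% of all genes tested were lower and 0.818% higher by that much. Wt1 had 83.8 CPM in mutant and 99.3 CPM in control cells, Tbx18 74.9 and 82.9, Gata4 52.2 and 52.5, Gata6 139 and 208, and Hand2 110 and 143 CPM. Tcf21 was higher at 474 and 328 CPM, a ratio of 1.44 (1.28 to 1.62), and it was seen in 39.0% of mutant cells (34.3 to 43.9) and 28.2% of control cells (22.4 to 34.5) at 1000 UMIs, against 3.9% and 0% of endothelial cells. Below 50 CPM, Tbx20 stood at 24.1 and 46.8 CPM, Bnc1 at 36.0 and 26.3, Sox9 at 30.1 and 44.3, Nr2f2 at 30.6 and 23.8, Gata5 at 14.8 and 15.6 CPM. Isl1 had 1 UMI in mutant and 19 UMIs in control cells, with 57.9% of the control UMIs in 1 cell, and Mecom 5 and 24 UMIs. Bnc2 had 15 and 3 UMIs, Nr2f1 9 and 12, Foxc1 11 and 8, Irx3 6 and 1, and Hoxb5 none. These ratios moved with the setting. Over 15 settings the log2 ratio of Tbx18 ran from -1.22 with cells thinned to 1000 UMIs to 0.13, and it passed 1.5-fold in 3. That of Wt1 ran from -0.96, also thinned, to -0.18 and passed in 1, and that of Gata6 from -0.72 to -0.19 and passed in 5.

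Of the retinoic acid list, Aldh1a2 (151 and 176 CPM) and the response gene Rarres2 (131 and 136 CPM) were among the members that reached 50 CPM, and neither passed 1.5-fold. With equal weight per cell the log2 ratio of Aldh1a2 was -0.68. The receptor genes Rara, Rarb, Rarg and Rxra gave 0 to 14 UMIs in a library, Rdh10 22 and 7, Dhrs3 5 and 13, Crabp1 13 and 24, and Crabp2 6 and 2. The dehydrogenase genes Aldh1a1 and Aldh1a3 gave 20 and 5 and 2 and 0 UMIs, and Cyp26a1 0 and 1. Cyp26b1 and Stra6 had no UMI in gated cells of either library. Of 11 tested signals secreted by the epicardium none passed 1.5-fold, where 2.54% of all genes tested were lower and 0.818% higher by that much. Their median was -0.06. The heparin-binding growth factor genes Mdk and Ptn stood highest, at 2823 and 2593 CPM and 2179 and 2318 CPM, and Tgfb2 (71.9 and 98.5 CPM) had the lowest ratio. Igf2 stood at 49.3 and 61.6 CPM.

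Among lists of general cell state, RNA-binding protein genes lay close to the whole, while glycolysis and oxidative phosphorylation genes lay mostly below 0. Of 26 tested RNA-binding protein genes whose products are known to carry methylarginine, none passed 1.5-fold. By that much, 2.54% of all genes tested were lower and 0.818% higher. In the RNA-binding list 13 genes lay on each side of 0 and the median was -0.00068. All 12 tested glycolysis and hypoxia genes lay below 0, against 53.8% of all genes, none past 1.5-fold, with a median of -0.26 (Slc2a1, the glucose transporter gene, 75.4 and 108 CPM, and Ldha, 352 and 482 CPM). They were also below 0 on the median in Tcf21+ mesenchymal cells (-0.17). Of 31 tested genes of oxidative phosphorylation 28 lay below 0, with a median of -0.12, and Cycs, the cytochrome c gene, passed at 571 and 877 CPM; the median was -0.23 in mesenchymal cells. Of 3 tested p53 targets, Btg2 passed 1.5-fold, lower. Of 10 tested heat shock genes Hspb1 passed, lower at 370 and 695 CPM, with 31.9% of its control UMIs in 1 cell.

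At a fixed depth, a smaller share of gated cells than of the other classes compared had several G2/M UMIs. The summed G2/M level was 3548 CPM in mutant and 3307 CPM in control gated cells. It was close to this in Tcf21- mesenchymal cells of the mutant, at 3555 CPM, and 3987 CPM in those of the control. At 1000 UMIs per cell, at least 3 UMIs of 42 G2/M genes were seen in 23.7% of gated mutant cells (19.7 to 28.1) and 28.6% of gated control cells (22.8 to 35.0), against 43.2% and 48.7% of Tcf21+ mesenchymal cells, 39.0% and 51.5% of endothelial cells, 46.3% and 46.4% of cardiomyocytes and 36.5% and 37.5% of Tcf21- mesenchymal cells, the last of which (29.6 to 45.9) overlaps the interval of gated control cells. Before thinning, the gated shares were 52.4% and 52.0%. At least 3 UMIs of 30 S phase genes were seen in 17.0% and 17.6% of gated cells, against 25.9% and 29.5% of Tcf21+ mesenchymal, 26.0% and 25.8% of endothelial, 16.7% and 20.8% of Tcf21- mesenchymal cells and 18.2% and 19.0% of cardiomyocytes, so the S phase shares were close to those of the last 2 classes. Between mutant and control, the intervals overlap for both lists. Of 21 tested G2/M genes Tpx2 passed 1.5-fold, higher, and of 12 S phase genes none. By that much, 0.818% of all genes tested were higher and 2.54% lower. The medians of the lists were 0.09 and 0.13.

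Within the gate, cells with few gate-gene UMIs differed from those with many. Among cells with 3 to 4 such UMIs (134 mutant and 85 control), Upk1b, Wt1, Tbx18 and Aldh1a2 summed to 171 CPM in mutant and 284 CPM in control cells. Among cells with at least 10 (107 and 45) they summed to 582 and 656 CPM. Tcf21 went the other way in mutant cells, with 615 CPM at 3 to 4 and 372 CPM at 10 or more gate-gene UMIs, and was level in control cells, at 322 and 323 CPM. In cells just outside, with 2 UMIs of 2 gate genes, Tcf21 was 830 and 419 CPM. Cells with at least 10 gate-gene UMIs were also deeper, with medians of 5271 and 10541 UMIs, since the gate counts raw UMIs.

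Splitting gated cells by a Tcf21 UMI at 1000 UMIs per cell (163 of 418 mutant and 64 of 227 control cells) left most genes within 1.5-fold. Of 2280 genes compared, none was at least 2-fold higher in the Tcf21+ side in both libraries and 9 were at least 2-fold lower. These 9, chosen after their values were seen, were Hsd3b6 (log2 ratio of Tcf21+ over other gated cells -3.61 in the mutant and -3.35 in the control library), Car2 (-2.42 and -3.83), Nudt4, Nppa, Cox6a2, Mkrn1, Ttn, Tnnt2 and Csrp3, of which Nppa, Cox6a2, Ttn, Tnnt2 and Csrp3 are heart muscle genes. In all, 5 were at least 1.5-fold higher there (values chosen after they were seen: Atf3, Tceal3, Guk1, Ebf1 and Cetn2), and 21 were 1.5-fold lower. Msln, the mesothelin gene, was among those lower, with 21.1 CPM in Tcf21+ and 56.4 CPM in other gated cells of the mutant, and 44.7 and 80.4 CPM in the control library. Upk3b was alike on both sides, with 535 and 578 CPM in the mutant and 745 and 688 CPM in the control library. The sides also differed in haemoglobin. It took 0.804% of the UMIs of Tcf21+ and 9.06% of those of other gated cells in the mutant library, and 0.0382% and 6.66% in the control library. What red cell or muscle RNA contributes to this split was not tested.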

How the data were processed

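Single-cell RNA was profiled from 1 mutant and 1 control library with a 10X Genomics Chromium v2 kit, per the labels' protocols. The authors deposited raw UMI counts for each gene and barcode. Cell Ranger 3.0.2 is named in the file headers, and Seurat in the submitters' processing notes. The genome build is not given in the sources used here, and 99.9% of 31053 identifiers were found in GENCODE M21 (GRCm38), which gave positions. The mutant matrix listed 7181 barcodes of at least 500 UMIs and the control matrix 6794880. The control list has the size of a later kit's barcode list, so the kit version rests on the labels alone.

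Cells had at least 1000 UMIs, 500 genes and at most 20% mitochondrial UMIs. UMIs were summed over the cells of a class and library and scaled to 1000000 (CPM). Ratios are log2 of CPM with 10 added; plain ratios have exact conditional binomial intervals, shares Clopper-Pearson intervals, their differences Newcombe intervals, levels Poisson intervals, all at 95%, and a count of 0 allows 3. Genes needed a mean of 50 CPM. Other classes were taken by UMI limits (cardiomyocytes 30 of Tnnt2 and Tnnc1 per 10000, red cells 10% haemoglobin, others 3 UMIs of 2 marker genes). With 1 library per genotype, no test was run. Thinning drew 1000 UMIs per cell. Doublet scores (scanpy 1.11.5, Scrublet method) were used for 1 alternative. Python 3.11.15, numpy 2.4.6, scipy 1.17.1 and pandas 2.3.3 were used. The code for ratios and intervals was run on simulated Poisson counts, which checks the code and not the spread between cells or libraries.

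Genes were named by rule: the gate genes and Prmt1; the 12 highest and 12 lowest log2 ratios among genes as high in gated cells as in cardiomyocytes and red cells with the same sign at equal weight per cell, and 6 each way among the rest; the 20 highest over Tcf21+ mesenchymal cells; up to 4 members past 1.5-fold of each of 33 gene lists; and the methyltransferase, transcription factor and retinoic acid lists, of which 1 item is not reported here. Mitochondrial, ribosomal, haemoglobin, sex-linked, Gm and Rik genes were left out of the ranked groups. Further list members, genes lower than in mesenchyme and genes of the Tcf21 split are context chosen after their values were seen. The members and lists were chosen with earlier results of these data known. The alternatives changed the cell, gate, muscle, haemoglobin and depth limits, doublets, weighting, thinning, scaling, pseudocount and CPM minimum.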

Additional observations from a re-analysis of the deposited data

Results flagged for a closer look

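In 3 named genes the difference between the libraries ran in opposite directions, by at least 1.5-fold each way, in gated and in Tcf21+ mesenchymal cells. The difference between these classes was not tested, and each class has 1 library per genotype. Atf3 had a log2 ratio of mutant over control of -1.29 in gated cells and 0.98 in Tcf21+ mesenchymal cells. Klf4 had -0.84 and 1.08. Nppa had 1.32 and -1.91, and 1 gated cell held 79.2% of its UMIs in the mutant and another 71.4% in the control library.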

How the results depend on the processing

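The share difference kept its direction in all 8 settings that could change it, and lay outside its interval with a gate of 5 UMIs and 3 genes (2.38 points) and in cells of 2000 to 5000 UMIs alone (6.24 points, a setting chosen after seeing the data). The Prmt1 ratio stayed under 1 in 12 settings and lay outside its counting interval (0.692 to 0.864) only in cells of 2000 to 5000 UMIs (0.953). Counts of genes 1.5-fold higher and lower in the mutant were 113 and 153 when cells were thinned to 1000 UMIs, 51 and 180 at a minimum of 20 CPM, and 12 and 35 at 100 CPM, where 87 genes were 2-fold higher than in Tcf21+ mesenchymal cells. The count of higher genes was also 34 without cells above 10000 UMIs, 38 with mitochondrial, ribosomal and haemoglobin genes out of the total, and 94 in cells of 2000 to 5000 UMIs. The immediate early median ranged from -0.89 to -0.59 over 15 settings and Mgp from -2.00 to -1.62. The cardiomyocyte median turned positive with a gate of 10 UMIs per 10000 (0.042), a muscle limit of 10 (0.13) and in cells of 2000 to 5000 UMIs (0.090). Nppa turned negative with a gate of 5 UMIs and 3 genes (-0.84), a gate of 10 per 10000 (-1.15), a muscle limit of 10 (-0.50), without cells over 1% haemoglobin (-1.39), without cells above 10000 UMIs (-0.78) and from 2000 to 5000 UMIs (-1.20). The log2 ratio of Myl3 was 0.34 with a gate of 10 per 10000. With a muscle limit of 10, the log2 ratios of Pf4, Clu and Tnnc1 were 0.0050, 0.0069 and 0.051. From 2000 to 5000 UMIs, the log2 ratio of Eln was 0.28, Fbn2 0.35, Ankrd1 0.70, Cnn1 0.42, Tnnc1 0.53, Hbb-bt -0.71 and Hba-x -0.32. The cause of these moves was not tested. Of the other comparisons of named genes and lists under a setting, 795 and 312 stayed within their counting interval or within 0.2, and 223 and 43 moved further. No paired analysis was possible because each genotype has 1 library. Leaving out a replicate was not possible for the same reason. Shallow cells limit detection of genes below 50 CPM.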

Other observations

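A gene model, Gm10320, was counted at 264 CPM in gated mutant cells and had no UMI in gated control cells. It was likewise higher in the mutant in Tcf21+ mesenchymal, endothelial and muscle cells, with log2 ratios of 4.58, 5.24 and 3.11, and it was chosen after its values were seen. Genes named Gm are often near-copies of other genes, and how reads were split between copies is not given in the sources used here.

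Further genes of secreted proteins were at least 1.5-fold lower in gated mutant cells, again chosen after their values were seen. Spon2, a matrix protein gene, had 185 CPM in mutant and 309 CPM in control cells, Sfrp1, a Wnt inhibitor gene, 136 and 223, Timp2, a metalloproteinase inhibitor gene, 186 and 292, and Igfbp3 36.5 and 68.9 CPM. In Tcf21+ mesenchymal cells their log2 ratios were 0.26, 0.23, -0.19 and 0.05.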
